A study of Mus musculus with 36 samples.

Results

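The genes described here are 7 CC chemokines (Ccl2, Ccl7, Ccl3, Ccl4, Ccl6, Ccl9 and Ccl24) and 2 CC chemokine receptors (Ccr2 and Ccr1), followed through single cells of the mouse left ventricle after ischemic injury. They were chosen by symbol, and all 9 were found among the 20720 genes of the deposited tables. Cells had been sorted for SORT-seq, a protocol in which each well of a plate receives 1 cell and each captured transcript carries a random tag, so that unique molecular identifiers (UMIs) are counted in place of reads. Wells of at least 1000 UMIs, mitochondrial and spike-in counts aside, were kept, which left 3126 of 13824 wells, or 3091 with a plate that had been deposited under 2 labels counted once.

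By their labels, all mice were male C57BL/6 animals of 8 weeks. Tissue came from the infarcted region 1, 3 or 14 days after ischemia-reperfusion by a 1-hour ligation of the left anterior descending artery (IR 1D, IR 3D and IR 14D), 1 or 14 days after sham surgery (Sham 1D and Sham 14D), or 3 days after permanent ligation of the same artery (MI 3D). Each GEO sample is a plate, and the kept wells numbered 432 for Sham 1D, 362 for Sham 14D, 492 for IR 1D, 608 for IR 3D, 476 for IR 14D and 721 for MI 3D. The methods give 3 mice per condition for hearts of day 3, state no number for the other groups, and do not tie plates to mice, so plates can share a mouse, as some of the 5 MI 3D plates must, and p-values measure only the spread between plates, which may be technical. A sham group of day 3 was not analysed here, and both day 3 groups were set against the 2 sham groups together.

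CC chemokines are small secreted proteins that guide leukocytes through receptors coupled to G proteins, and they are named for a pair of adjacent cysteines near the start of the mature protein. Ccl2 and Ccl7 are ligands of Ccr2, the receptor with which monocytes leave the bone marrow and enter injured heart muscle. Ccl3, Ccl6 and Ccl9 act through Ccr1, and Ccl24 attracts eosinophils through Ccr3.

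The cysteine pair is shown for 6 of the ligands because it defines the family. Each line gives 30 bases of the coding sequence from the GENCODE vM21 transcript, 5′ to 3′, with the codons of the pair in capitals.
Ccl2: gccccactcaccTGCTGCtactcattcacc
Ccl7: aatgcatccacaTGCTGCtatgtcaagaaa
Ccl4: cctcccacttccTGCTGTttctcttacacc
Ccl6: acttcttcagacTGCTGCttctcttatgcc
Ccl9: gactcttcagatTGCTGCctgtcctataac
Ccl24: atcccctcatctTGCTGCacgtcctttatt
Counted from the start codon, the pair lay at codons 34 and 35 of Ccl2 and Ccl4, at 33 and 34 of Ccl7 and Ccl24, at 50 and 51 of Ccl6 and at 57 and 58 of Ccl9. Ccl24 held 2 such pairs and the later one is shown. The longest run of identical bases between transcripts of 2 members was 25 for Ccl6 and Ccl9 and 23 for Ccl2 and Ccl7.

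In GRCm38.p6, RefSeq places 6 of the ligands on chromosome 11. Ccl2 (chr11:82035577-82037452) and Ccl7 (chr11:82045712-82047525) lie side by side on the plus strand, and Ccl9 (chr11:83572917-83578636) and Ccl6 (chr11:83587886-83593087) side by side on the minus strand. Ccl3 (chr11:83647843-83649378, minus) and Ccl4 (chr11:83648624-83664683, plus) overlap on opposite strands. The strand setting of the counting is not given in the sources used here, so reads of the overlap cannot be assigned to 1 of the 2 with certainty. Ccl24 lies at chr5:135569935-135573123 on the minus strand, Ccr1 at chr9:123962126-123968692 on the minus strand and Ccr2 at chr9:124101918-124109140 on the plus strand.

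The plates differed in depth and quality. The median number of UMIs per kept well was between 2308 and 3230 in the sham and IR groups and 13120 in MI 3D, whose plates carry a protocol label of their own, so the MI group and its batch cannot be told apart. The median mitochondrial share of a well was 72.1% in Sham 1D, 72.0% in Sham 14D, 33.8% in IR 1D, 49.3% in IR 3D, 74.0% in IR 14D and 10.5% in MI 3D. It was thus lower in the 3 injured groups with called members than in both sham groups, and its part in the differences was not tested. Replicate 2 of IR 3D had no well of 1000 UMIs and entered no fit, the Sham 14D plates labelled 2 and 7 were 1 plate and were counted once after the clustering, and 43 wells that copied wells of another plate were left out. The smallest plate, Sham 14D replicate 6, had 10 wells and 17155 UMIs, so that 1 UMI there stands for 58.3 CPM, the UMIs of a gene scaled to a fixed total per plate as for all levels here.

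Timing was first read over all kept wells of a plate. This mixes cell types, and fewer cells of a type cannot be told apart from less RNA per cell. Macrophage-like wells made up 5.09% of the wells in Sham 1D and 1.93% in Sham 14D, against 22.6% in IR 1D, 32.2% in IR 3D, 1.26% in IR 14D and 39.1% in MI 3D. The part of these shares in the differences over all wells was not tested, and levels within each class follow further on.

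Ccl2 and Ccl7 had their highest median 1 day after reperfusion. Ccl2 was at 4.43, 693, 190 and 240 CPM on the Sham 1D plates and ran from 534 through a median of 2201 to 5775 CPM on the 9 IR 1D plates. Every IR 1D plate but replicate 2 was above every Sham 1D plate. Ccl2 ran from 124 through 365 to 793 CPM on the 6 IR 3D plates and was at 754, 608, 799, 1034 and 804 CPM in MI 3D. Of the 7 Sham 14D plates 5 were at 0, while replicate 8 was at 112 CPM and replicate 6 at 525 CPM, which is 9 UMIs.
Ccl7 was at 26.6, 450, 126 and 80.9 CPM in Sham 1D and ran from 108 through 534 to 1456 CPM in IR 1D. It ran from 95.2 through 240.0 to 1065 CPM in IR 3D, where replicate 1 stood far above the other plates, and was at 649, 489, 423, 657 and 360 CPM in MI 3D. Sham 1D replicates 2 and 3 and Sham 14D replicate 6, at 816 CPM, lay inside the range of the injured plates.

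Ccl3 and Ccl4 are inflammatory ligands of activated myeloid cells. Ccl3 was at 0, 59.2, 50.6 and 43.4 CPM in Sham 1D and ran from 50.2 through 254 to 646 CPM in IR 1D. It ran from 63.4 through 119 to 272 CPM in IR 3D and was at 125, 96.6, 63.2, 112 and 77.7 CPM in MI 3D. Every IR 3D and MI 3D plate was above every sham plate, and 6 of the 7 Sham 14D plates were at 0.
Ccl4 was at 0, 144, 73.1 and 46.2 CPM in Sham 1D and ran from 63.4 through 157 to 618 CPM in IR 1D. It ran from 55.7 through 97.0 to 272 CPM in IR 3D and was at 130.1, 65.3, 83.4, 165 and 104 CPM in MI 3D. All 3 injured groups overlapped Sham 1D.

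Ccl6 and Ccl9 are ligands of Ccr1 that mouse myeloid cells make. Ccl6 was at 4.43, 767, 325 and 393 CPM in Sham 1D and ran from 548 through 1708 to 3960.5 CPM in IR 1D. It ran from 397 through 870.0 to 2175 CPM in IR 3D and was at 1134, 1682, 1182, 1508 and 1178.5 CPM in MI 3D. The MI 3D plates were above every sham plate, while IR 1D and IR 3D overlapped Sham 1D.
Ccl9 was at 11.1, 367, 233 and 234 CPM in Sham 1D and ran from 197 through 825 to 1384 CPM in IR 1D. It ran from 243 through 389 to 840.3 CPM in IR 3D and was at 574, 825, 508.5, 639 and 610.3 CPM in MI 3D. Again the MI 3D plates alone were clear of all sham plates.
Ccl24 had another course. It was at 6.64, 49.7, 46.4 and 130.1 CPM in Sham 1D and ran from 7.17 through 44.3 to 108 CPM in IR 1D. In IR 3D it was at 0 on 3 of the 6 plates and at 105 CPM on replicate 3, and in MI 3D at 42.9, 77.3, 31.3, 42.7 and 35.6 CPM. The MI 3D and IR 1D plates lay within the Sham 1D range.

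Of the receptors, Ccr2 was at 4.43, 163, 15.5 and 20.2 CPM in Sham 1D and ran from 83.3 through 160 to 636 CPM in IR 1D. It ran from 31.5 through 183 to 317 CPM in IR 3D and was at 193.7, 229, 180.2, 156 and 162 CPM in MI 3D. Sham 1D replicate 2 was the only sham plate inside the range of the injured groups, and it was also the Sham 1D plate with the most Ccl2, Ccl7, Ccl3, Ccl4, Ccl6, Ccl9 and Ccr1.
Ccr1, a receptor of monocytes and neutrophils, was at 0, 75.7, 19.7 and 20.2 CPM in Sham 1D and ran from 147 through 243 to 434 CPM in IR 1D. It ran from 10.5 through 77.6 to 204 CPM in IR 3D and was at 124, 145, 138, 131 and 103 CPM in MI 3D. The IR 1D plates were all above the Sham 1D plates, although not all above Sham 14D replicate 6, where 3 UMIs gave 175 CPM.
At day 14 replicate 3 of IR 14D held most of the ligand transcripts, with 81.6 CPM of Ccl2, 219 CPM of Ccl6 and 91.9 CPM of Ccl9. The other IR 14D plates were at or below 16.5 CPM for each of the 9 genes.

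**Figure D1:**
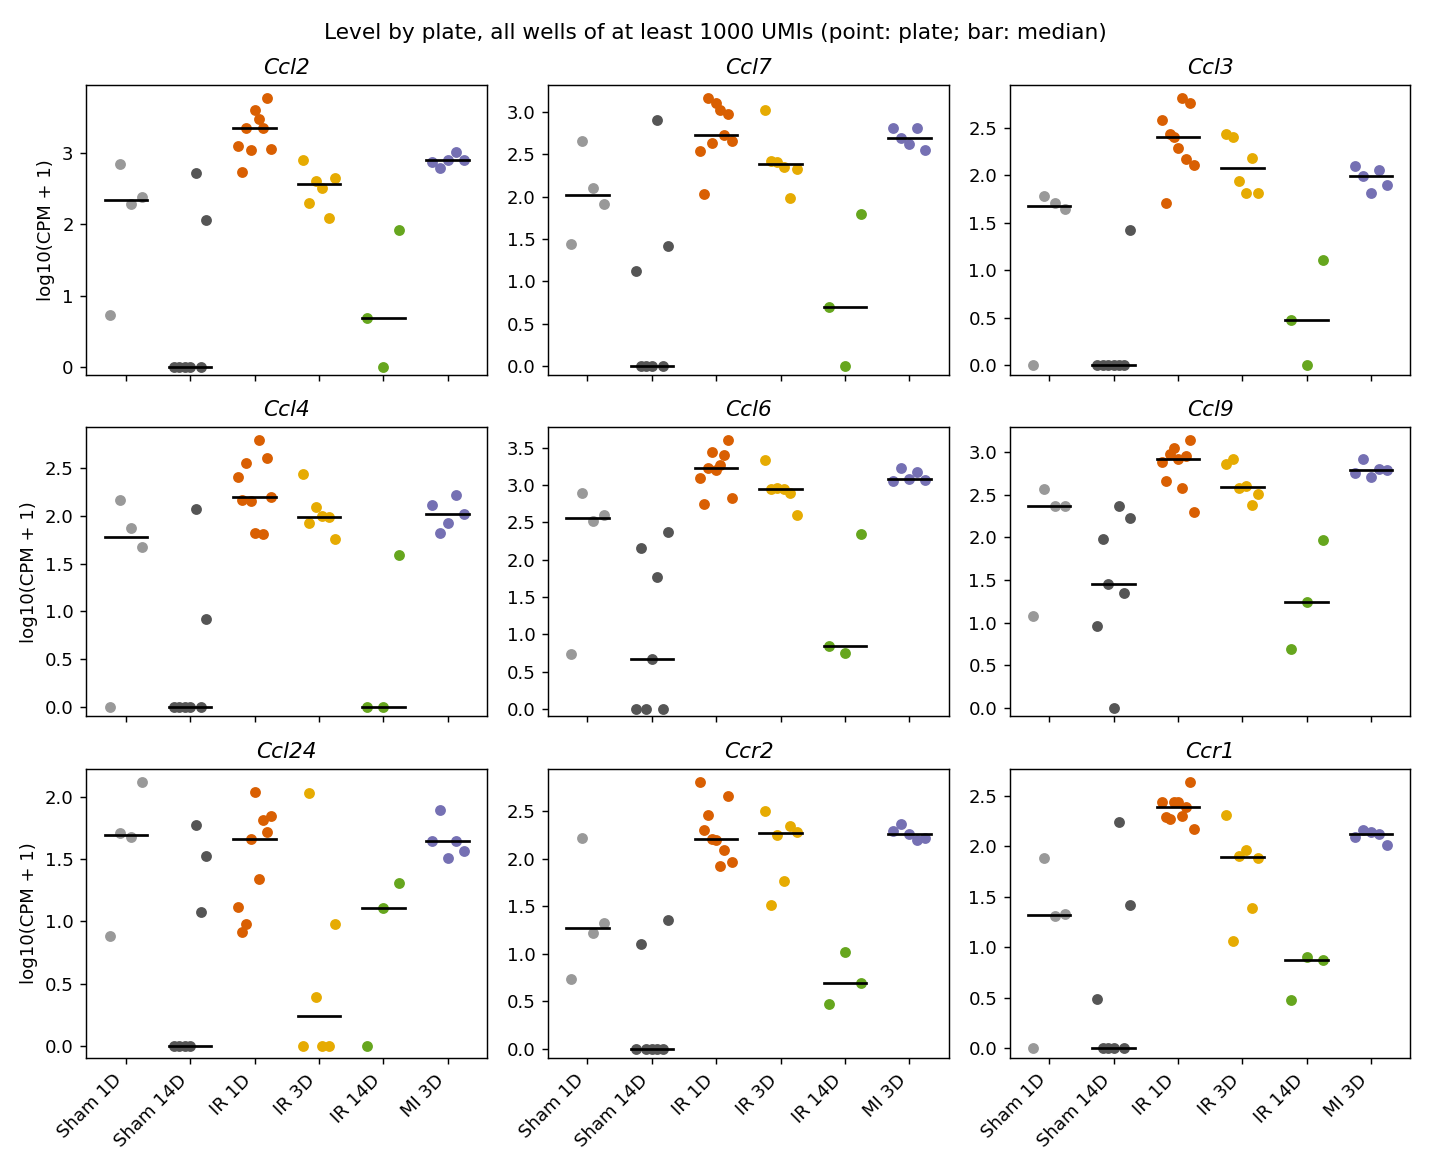
Level of each gene over all kept wells as log10(CPM + 1), by group, with a point for each plate and a bar for the median of the group. IR 1D has the highest median of Ccl2, Ccl7, Ccl3, Ccl4, Ccl6, Ccl9 and Ccr1, while most Sham 14D plates are at 0 for Ccl2, Ccl3, Ccl4 and Ccr2.

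One day after reperfusion 6 of the 9 genes rose against Sham 1D and none fell, where 19.7% of the 9279 genes tested rose. Adjusted p-values are from edgeR's quasi-likelihood test with Benjamini-Hochberg adjustment over all genes, and errors of log2 differences are standard errors. Ccr1 rose by log2 2.92 ± 0.55 (adjusted p = 7.75e-05), Ccl3 by 2.72 ± 0.61 (adjusted p = 0.000619) and Ccr2 by 2.09 ± 0.63 (adjusted p = 0.00861). Ccl2 rose by 2.87 ± 0.94 (adjusted p = 0.0152), Ccl4 by 1.68 ± 0.64 (adjusted p = 0.0375) and Ccl9 by 1.71 ± 0.69 (adjusted p = 0.049). Ccl7 (log2 1.91 ± 0.81, adjusted p = 0.0602) and Ccl6 (2.16 ± 0.92, adjusted p = 0.0611) did not pass, nor did Ccl24. The median log2 difference was 2.09 over the 9 genes and 0.097 over all genes tested. The calls of Ccr1 and Ccl3 held without any single plate. The Ccl2 call was lost without Sham 1D replicate 1 (log2 2.43) or 3 (2.68) and the Ccr2 call without Sham 1D replicate 3 (1.72). The Ccl4 call was lost without Sham 1D replicate 1, 3 or 4 or IR 1D replicate 3, 6 or 8, and the Ccl9 call without Sham 1D replicate 1, 3 or 4 or IR 1D replicate 1, 3, 4, 5, 7 or 8, so that between 2 and 8 genes passed without single plates. The Ccl4 call was also lost by DESeq2, the Ccl9 call with RLE scaling, and both at a minimum of 2000 UMIs per well.

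At day 3 of reperfusion 7 of the 9 genes rose against the 2 sham groups, where 18.7% of genes rose. Ccr2 rose by log2 3.10 ± 0.62 (adjusted p = 0.00022), Ccl3 by 2.95 ± 0.60 (adjusted p = 0.000306), Ccr1 by 1.99 ± 0.53 (adjusted p = 0.00412) and Ccl4 by 2.67 ± 0.74 (adjusted p = 0.00583). Ccl6 rose by 2.33 ± 0.72 (adjusted p = 0.0129), Ccl9 by 1.77 ± 0.57 (adjusted p = 0.0166) and Ccl7 by 1.87 ± 0.71 (adjusted p = 0.0425). Ccl2 did not pass (1.59 ± 0.74, adjusted p = 0.101). The Ccl9 call was lost without IR 3D replicate 3 (log2 1.502), and the Ccl7 call without IR 3D replicate 1 (1.37), 3, 4 or 7, Sham 14D replicate 1, 5, 7 or 8 or Sham 1D replicate 1, 3 or 4. The Ccl7 call was also lost by DESeq2, with RLE scaling, at a minimum of 500 UMIs, with thinning and without Sham 14D replicates 3 and 4 together.
At day 3 of permanent ligation 8 of the 9 rose, all but Ccl24, where 33.1% of genes rose. The log2 differences ran from 2.15 ± 0.58 for Ccl9 (adjusted p = 0.00185) to 3.18 ± 0.61 for Ccr2 (adjusted p = 3.47e-05), with Ccl2 at 2.64 ± 0.75 (adjusted p = 0.0031), Ccl7 at 2.53 ± 0.71 (adjusted p = 0.00253) and Ccr1 at 2.71 ± 0.49 (adjusted p = 1.44e-05). Both day 3 comparisons use the same sham plates, and both depend on the Sham 14D plates: with Sham 1D alone as control none of the 7 calls of IR 3D held and Ccl24 was the only gene called, and in MI 3D 2 of the 8 calls held, those of Ccr2 and Ccr1.
None of the 9 was called between MI 3D and IR 3D by edgeR or by DESeq2, where edgeR called 17.5% of genes and 2776 had an unadjusted p under 0.05. Ccl24 came closest (log2 2.34 ± 0.86, adjusted p = 0.0539).

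From day 1 to day 3 of reperfusion 3 of the 9 genes fell and none rose, where 14.2% of genes fell. Ccl2 fell by 2.65 ± 0.79 on the log2 scale (adjusted p = 0.0101), Ccr1 by 1.72 ± 0.45 (adjusted p = 0.00365) and Ccl24 by 2.23 ± 0.86 (adjusted p = 0.0466). The Ccl24 call was lost without IR 1D replicate 4, 5, 7, 8 or 9 or IR 3D replicate 1, 4, 5, 6 or 7, with a log2 difference of -1.44 without IR 3D replicate 4, and by DESeq2 (-1.39) or with RLE scaling (-2.19). At day 14 none of the 9 was called against Sham 14D by edgeR or by DESeq2. edgeR called 0.0216% of genes there, which is 2 genes, and DESeq2 4, while 665 had an unadjusted p under 0.05.
The effect at day 1 was called larger than that at day 14 for Ccr1 alone (difference of log2 3.76 ± 1.21, adjusted p = 0.0255), where 5.69% of genes passed in that direction. The median difference was log2 2.35 over the 9 genes and -0.014 over all genes tested. The Ccr1 call was lost without IR 14D replicate 1 (3.23), Sham 14D replicate 6 (3.18) or Sham 14D replicate 8 (2.67), and at a minimum of 2000 UMIs (2.79).

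The source of the transcripts was read from classes of wells that were clustered with every chemokine and chemokine receptor gene left out, and named from marker genes. The classes were macrophage-like (624 wells), neutrophil-like (158), fibroblast-like (288), endothelial-like (401) and cardiomyocyte-like (1122), with 471 wells unnamed. The neutrophil-like wells came from IR 1D (105 wells), MI 3D (52) and Sham 1D (1). Macrophage-like wells held 96.1% of the Ccl24 UMIs, 93.8% of Ccr2, 91.9% of Ccl6, 88.2% of Ccl9, 83.7% of Ccl4, 83.5% of Ccl3, 83.4% of Ccr1, 76.1% of Ccl7 and 73.0% of Ccl2. Fibroblast-like wells held 18.9% of Ccl2 and 19.5% of Ccl7, and neutrophil-like wells 12.4% of Ccl3, 9.68% of Ccl4 and 9.93% of Ccr1. In IR 1D alone the neutrophil-like wells held 35.3% of Ccl3, 32.9% of Ccl4 and 29.0% of Ccr1.

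**Figure D2:**
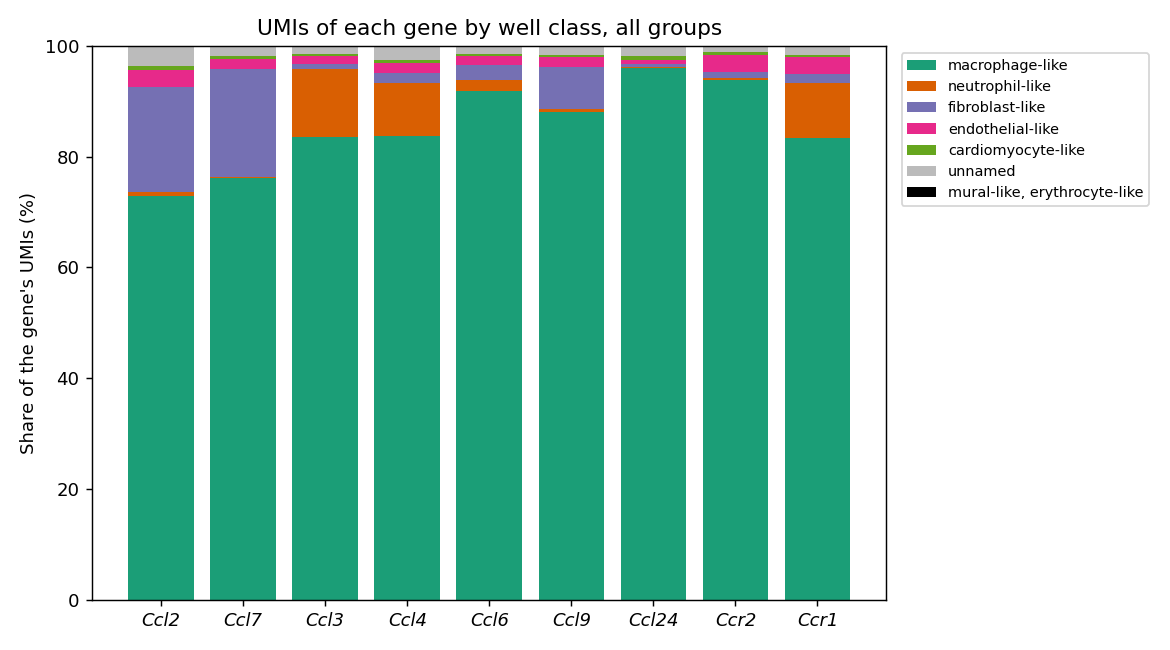
Share (%) of the UMIs of each gene found in each well class, over all groups and kept wells. Macrophage-like wells hold from 73.0% (Ccl2) to 96.1% (Ccl24), fibroblast-like wells are the next largest part of Ccl2 and Ccl7, and neutrophil-like wells the next largest part of Ccl3, Ccl4 and Ccr1.

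These shares follow the number and depth of the wells, so levels were compared between classes of the same plate. The test was a two-sided permutation test paired by plate on log2(CPM + 10), with 100000 resamples and, for each class, adjustment over all genes at a mean of at least 10 CPM in the 2 classes, and errors are SD over plates. The classes differed in 34 of the 36 pairs of gene and class. Macrophage-like wells were the higher in 33 of them, where they were higher for 26.4% of all pairs (30.5% of genes against neutrophil-like, 19.7% against fibroblast-like, 17% against endothelial-like and 40% against cardiomyocyte-like wells). Against cardiomyocyte-like wells (14 plates) the differences ran from log2 2.86 ± 2.26 for Ccl24, higher on 12 plates and lower on none, to 5.89 ± 1.71 for Ccl6, higher on 14. Against endothelial-like wells (20 plates) they ran from 3.58 ± 1.67 for Ccr1 to 5.74 ± 2.45 for Ccl6.
Against fibroblast-like wells (17 plates) the smallest differences were those of the Ccr2 ligands. Ccl7 averaged 1048 CPM in macrophage-like and 427 CPM in fibroblast-like wells (log2 1.76 ± 2.05, higher on 15 plates, adjusted p = 0.00428). Ccl2 averaged 2358 and 768 CPM (log2 2.46 ± 2.50, higher on 15 plates, adjusted p = 0.000586). Ccl3, Ccl4, Ccl24, Ccr2 and Ccr1 averaged between 0.208 and 4.81 CPM in fibroblast-like wells.
Neutrophil-like wells (14 plates) stood apart. Ccr1 averaged 910.4 CPM in neutrophil-like and 393 CPM in macrophage-like wells and was lower in macrophage-like wells on all 14 plates (log2 -1.17 ± 0.50, permutation test, adjusted p = 0.00139), as 8.1% of all genes were. Ccl4 (893 and 475 CPM, log2 -1.04 ± 1.86, adjusted p = 0.114) and Ccl3 (1174 and 585 CPM, log2 -0.68 ± 2.33, adjusted p = 0.395) were lower in macrophage-like wells on 10 of 14 plates each, and neither passed. Ccr2 averaged 45.4 CPM in neutrophil-like and 602 CPM in macrophage-like wells and was higher in the latter on 14 of 14 plates.

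**Figure D3:**
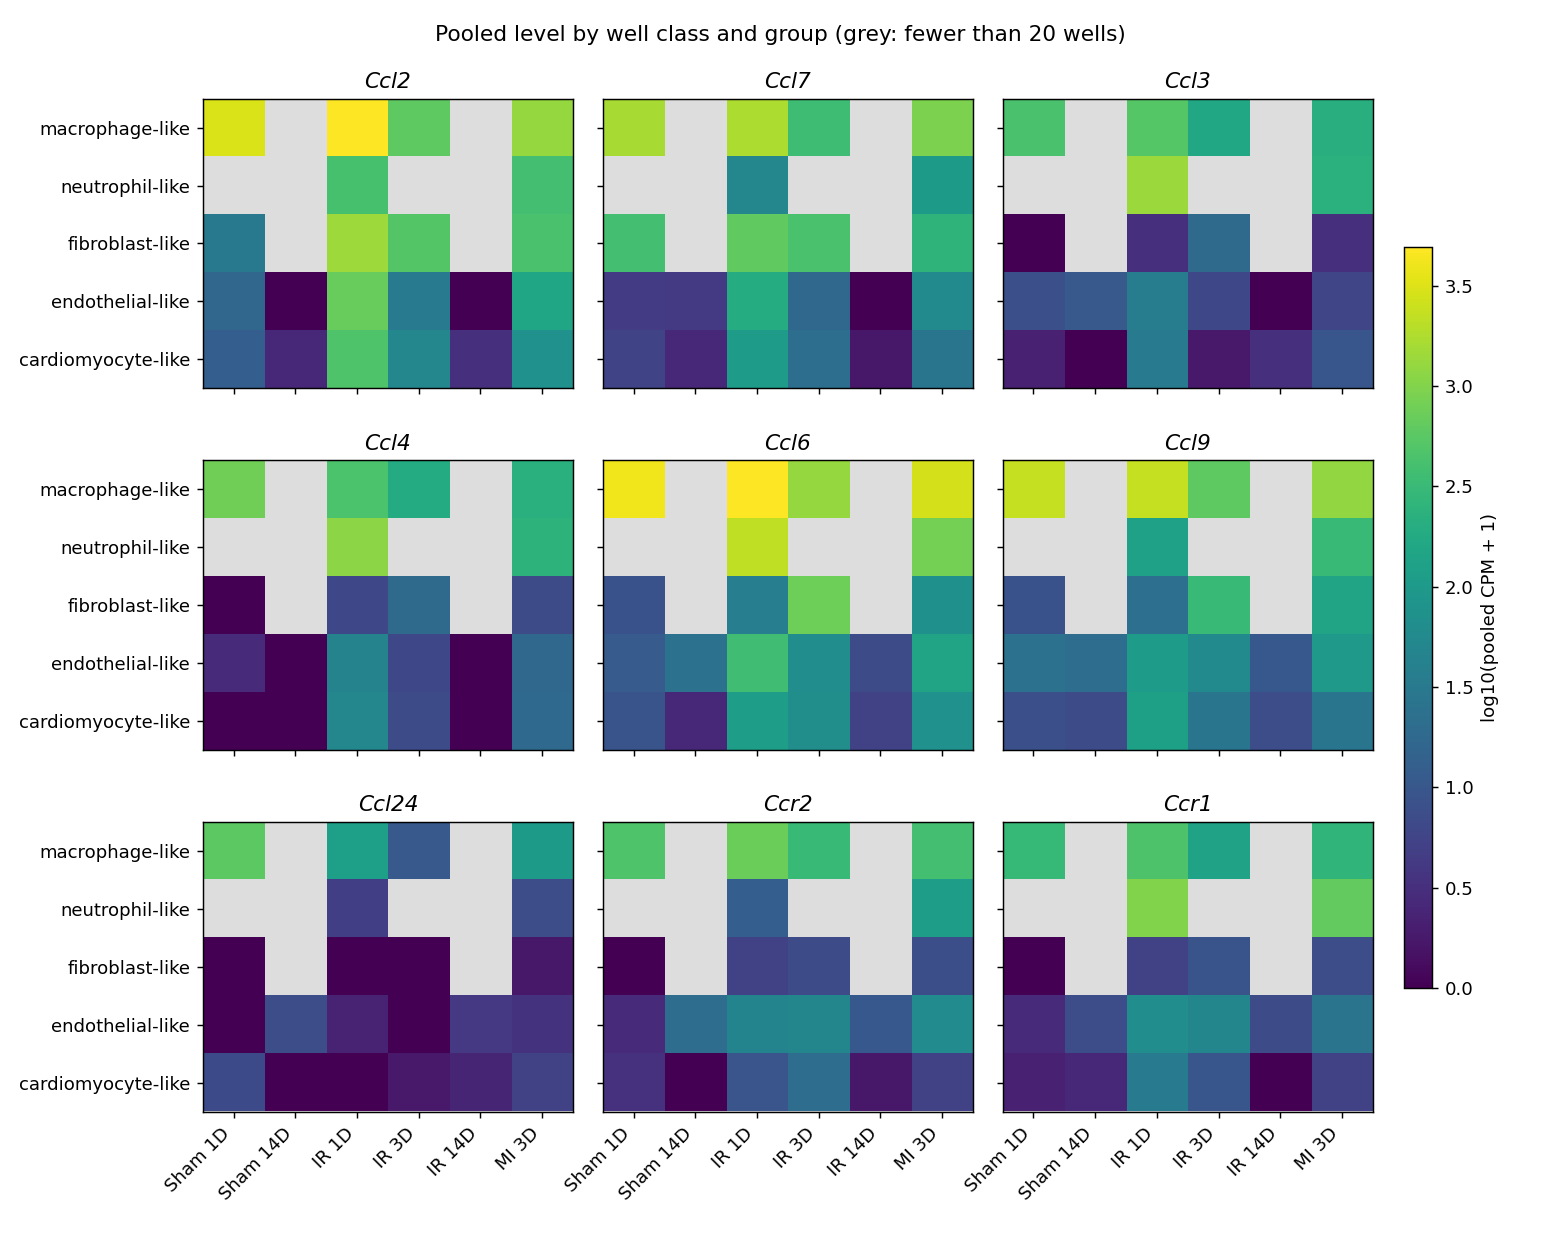
Pooled level of each gene as log10(pooled CPM + 1), in colour, for 5 well classes (rows) and 6 groups (columns), with pools under 20 wells in grey. Ccl2 and Ccl7 reach into fibroblast-like wells, and Ccl3, Ccl4 and Ccr1 are higher in neutrophil-like than in macrophage-like wells of IR 1D.

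Since depth differed between classes, the share of wells with a UMI was taken after each well was thinned to 1000 UMIs, with exact binomial 95% intervals that cover counting error only. In IR 1D, Ccr2 was found in 45 of 111 macrophage-like wells (40.5%, interval 31.3 to 50.3) and in 0 of 105 neutrophil-like wells (upper bound 3.45%). Before thinning the shares were 63.1% and 2.86%, at median depths of 9103 and 1925 UMIs. Cardiomyocyte-like wells of IR 1D, a class that should lack this leukocyte receptor, had it in 0 of 40 after thinning (upper bound 8.81%) and in 2.5% before, at a median depth of 1996 UMIs.
Ccl2 was found in 76.6% of macrophage-like, 44.0% of fibroblast-like, 26.6% of endothelial-like and 25.7% of neutrophil-like wells of IR 1D. It was also found in 15 of the 40 cardiomyocyte-like wells of IR 1D (37.5%, interval 22.7 to 54.2), against 2.99% of 234 such wells in Sham 1D. Whether the cardiomyocyte-like wells made this Ccl2 themselves was not tested. The endothelial-like and neutrophil-like shares of Ccl2 in IR 1D were no higher than the cardiomyocyte-like share. The fibroblast-like share lay within the interval of the cardiomyocyte-like share. By level, Ccl2 was at 82.9, 163 and 749 CPM on the 3 IR 1D plates with at least 5 cardiomyocyte-like wells. Replicate 3 held 41 of these 46 UMIs. On the 5 such plates of fibroblast-like wells Ccl2 was between 548 and 3236 CPM.

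Within macrophage-like wells most of the genes fell from day 1 to day 3 of reperfusion. The class is made of 3 clusters, described further on, and different clusters held most of it in these groups: 95 of the 111 IR 1D wells were in cluster 2 and 155 of the 196 IR 3D wells in cluster 6. Ccl2 ran from 1220 through 4031 to 10157 CPM on the 9 IR 1D plates and from 205 through 636 to 1234 CPM on the 6 IR 3D plates. It was at 1342, 958, 1212.5, 1675 and 1241 CPM in MI 3D and at 4209, 2166 and 2440 CPM on the 3 Sham 1D plates with at least 5 such wells. Replicate 9 was the only IR 1D plate that reached down to the IR 3D range.
Ccl7 ran from 157 through 1393 to 3028 CPM in IR 1D and from 195 through 438 to 1586 CPM in IR 3D. Ccl6 ran from 1287 through 3830 to 10078 CPM in IR 1D and from 653 through 2194 to 3349 CPM in IR 3D. Ccl9 ran from 1043 through 2094 to 3866 CPM in IR 1D and from 493.1 through 858 to 2717 CPM in IR 3D. The ranges of these 3 ligands overlapped widely.
Ccr1 ran from 244 through 478 to 665 CPM in IR 1D and from 34.0 through 127 to 317 CPM in IR 3D, and replicate 9 was the only IR 1D plate inside the IR 3D range. Ccr2 ran from 362 through 640.3 to 1489 CPM in IR 1D and from 102 through 307 to 493.5 CPM in IR 3D, and the ranges overlapped at their ends.

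In this comparison 7 of the 9 genes fell, where 12.1% of the 5147 genes tested fell. Ccl2 fell by 2.93 ± 0.39 on the log2 scale (adjusted p = 2.02e-06), Ccr1 by 1.70 ± 0.30 (adjusted p = 0.00011), Ccl9 by 1.19 ± 0.29 (adjusted p = 0.00245) and Ccl6 by 1.37 ± 0.36 (adjusted p = 0.00534). Ccl24 fell by 3.30 ± 0.88 (adjusted p = 0.00579), Ccr2 by 1.15 ± 0.36 (adjusted p = 0.0165) and Ccl7 by 1.38 ± 0.48 (adjusted p = 0.0301). Ccl3 (log2 -1.33 ± 0.60, adjusted p = 0.102) and Ccl4 (-1.26 ± 0.59, adjusted p = 0.119) did not pass. The median log2 difference was -1.37 over the 9 genes and 0.050 over all genes tested.
The Ccl24 call was lost without IR 3D replicate 4 (log2 -2.30), by DESeq2 (-1.97) and with thinning (-1.72), the Ccr2 call with thinning (-0.87), and the Ccl7 call without IR 1D replicate 3 (-1.19) or IR 3D replicate 4 (-1.28), 6 (-1.26) or 7 (-1.28). Cell type markers differed between the same plates. The summed level of the 13 macrophage markers ran from 5342 to 15213 CPM in IR 1D and from 19252 to 27883 CPM in IR 3D, and that of the 12 neutrophil markers, of which Camp and Ngp had no UMI in either group, from 54.5 to 2269 CPM and from 35.2 to 238 CPM. The 12 cardiomyocyte markers, all present in both groups, ran from 143 through a median of 431 to 1081 CPM in IR 1D and from 775 through 2633 to 3804 CPM in IR 3D, and the 11 fibroblast markers, with Tcf21 at 0 in IR 1D, from 206 through 372 to 1905 CPM and from 458 through 1226.5 to 1658 CPM. The 11 endothelial markers, with Kdr at 0 in IR 1D, ran from 110 through 488 to 696 CPM and from 106 through 1111 to 2119 CPM. Their part in the falls was not tested.
Within cluster 2, pooled over wells and with no test, Ccl2 was at 5318 CPM in IR 1D (95 wells) and 569 CPM in IR 3D (25 wells), Ccl6 at 4995 and 1844 CPM and Ccr1 at 510 and 302 CPM. Ccr2 was at 789 and 987 CPM, but IR 3D replicate 4 held 172 of its 222 UMIs in IR 3D. Without that plate the IR 3D values were 578 CPM for Ccr2, 324 CPM for Ccl2, 1618 CPM for Ccl6 and 231 CPM for Ccr1 (13 wells), so no direction is read for Ccr2.

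**Figure D4:**
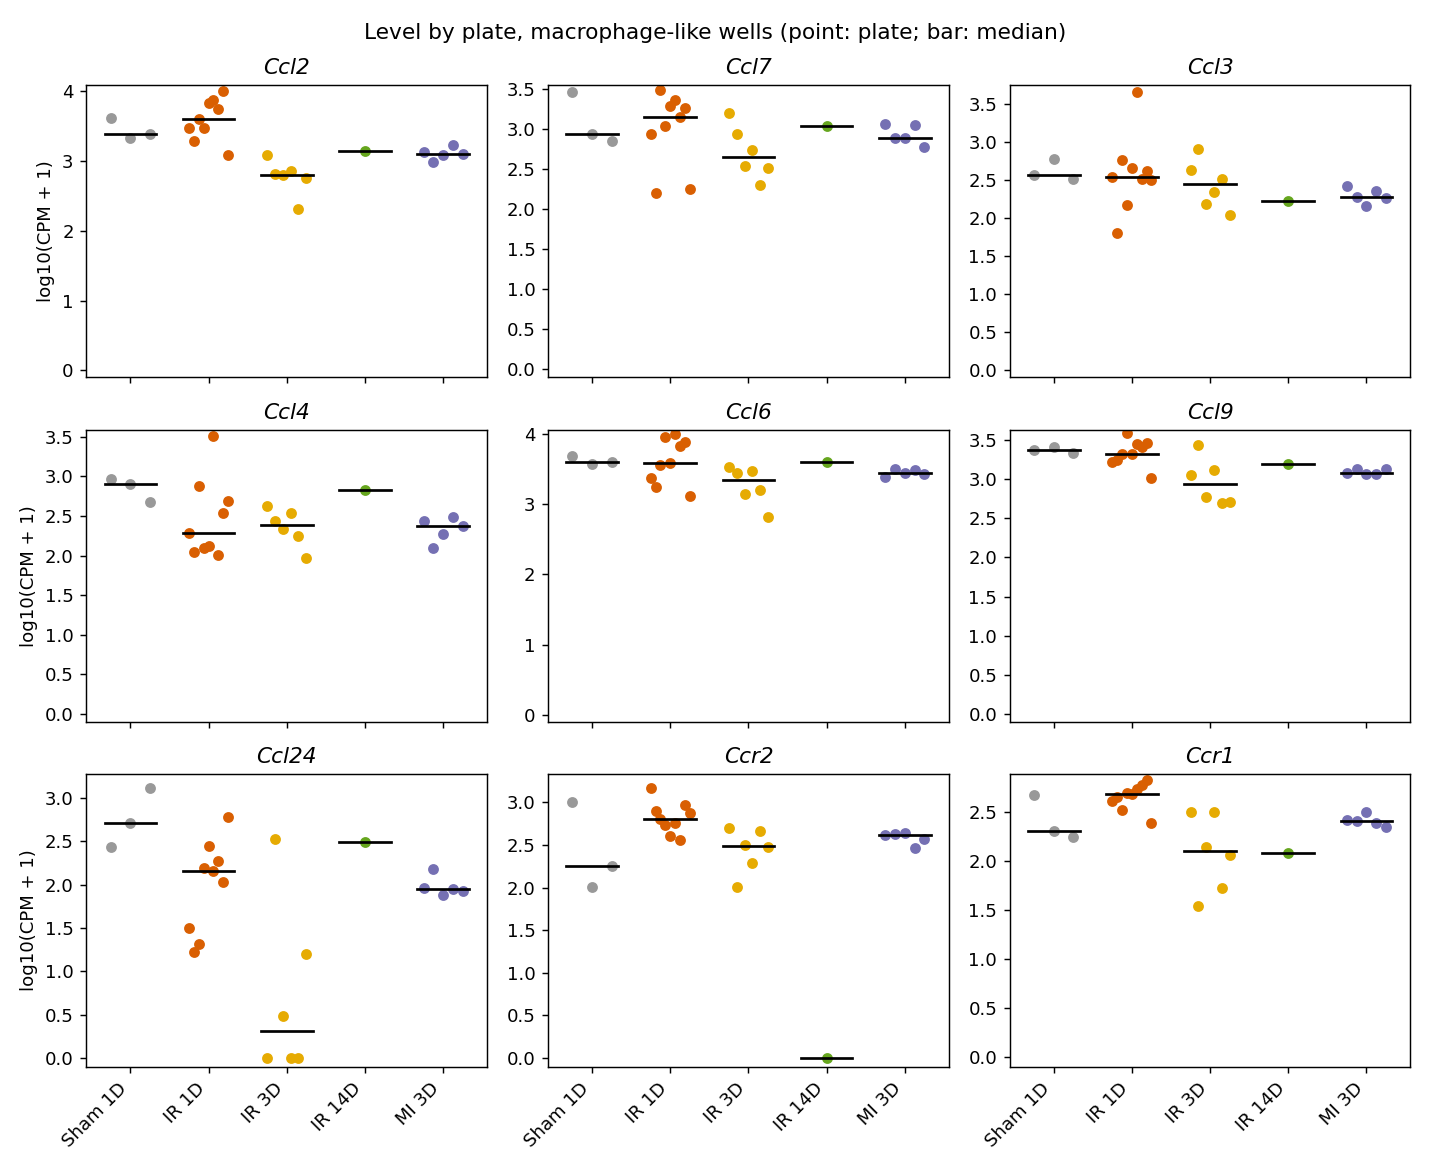
Level of each gene in macrophage-like wells as log10(CPM + 1), by group, with a point for each plate of at least 5 such wells and a bar for the median. Ccl2 and Ccr1 are lower on the IR 3D plates than on all IR 1D plates but replicate 9, and the 5 MI 3D plates lie close together.

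Fewer differences passed for macrophage-like wells of MI 3D. MI 3D and IR 1D differ at once in day, type of ligation and protocol label, which cannot be told apart. Against IR 1D, Ccl2 alone was called (fell by 1.88 ± 0.38 on the log2 scale, adjusted p = 0.002), where 2.64% of genes fell. Ccr1 (log2 -0.83 ± 0.26, adjusted p = 0.0513), Ccl3 (-1.77 ± 0.57, adjusted p = 0.0566) and Ccl9 (-0.87 ± 0.29, adjusted p = 0.0636) did not pass, and DESeq2 called 4 of the 9.
Ccl24 was at 91.1, 151, 76.1, 87.6 and 83.8 CPM in MI 3D, while IR 3D had 3 plates at 0, others at 2.04 and 14.7 CPM and replicate 3 at 340 CPM. It was the only gene called against IR 3D (log2 2.79 ± 0.87, adjusted p = 0.0412), where 4.33% of genes rose. The call was lost by DESeq2 (1.21), with thinning (1.22) and without any MI 3D plate or IR 3D replicate 1, 4, 6 or 7, with a log2 difference of 1.71 without IR 3D replicate 4. Of the 282 MI 3D wells 220 were in cluster 2, where IR 3D had 25 wells and 8 Ccl24 UMIs, too few for a test within the cluster. Pooled over wells of cluster 2, Ccl24 was at 42.65 CPM in MI 3D and 35.6 CPM in IR 3D. The 42 cluster 12 wells of MI 3D held 530 of its 793 Ccl24 UMIs. The 13 macrophage markers, all present in both groups, summed to between 12127 and 16282 CPM in MI 3D and between 19252 and 27883 CPM in IR 3D. The 12 neutrophil markers summed to between 492 and 1076 CPM (Ngp at 0) and between 35.2 and 238 CPM (Camp, Ngp and Retnlg at 0), and the 12 cardiomyocyte markers, all present, had a median sum of 250 CPM (161 to 835 CPM) and 2633 CPM (775 to 3804 CPM). The 11 fibroblast markers, all present, summed to between 1043 and 2372 CPM and between 458 and 1658 CPM. The 11 endothelial markers, all present, had a median sum of 605 CPM (319 to 858 CPM) and 1111 CPM (106 to 2119 CPM). The part of these markers in the call was not tested.
Against Sham 1D, a comparison added after the classes were seen, none of the 9 was called in IR 1D by edgeR or DESeq2, where edgeR called 2.51% of genes and 833 had an unadjusted p under 0.05. Ccl24 was at 274, 520.4 and 1323 CPM in Sham 1D and ran from 15.7 through 143 to 599 CPM in IR 1D. It came closest to the threshold (log2 -2.23 ± 0.67, adjusted p = 0.0677). Of the 22 Sham 1D wells 13 were in cluster 12.

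The macrophage-like class was made of 3 clusters. Cluster 2 (352 wells, of which 95 in IR 1D and 220 in MI 3D) was led by genes that include S100a4, Tgfbi and the MHC class II genes H2-Aa and H2-Ab1. Cluster 6 (186 wells, of which 155 in IR 3D) was led by Gpnmb and Ms4a7 among others, and cluster 12 (86 wells) by genes that include Cd163, Cbr2, Lyve1 and Folr2, known from macrophages resident in the heart. Levels by cluster are a description, with no test between clusters.
Pooled over groups, Ccr2 was at 528 CPM in cluster 2, 275 CPM in cluster 6 and 81.9 CPM in cluster 12. Ccl24 was at 62.0, 4.73 and 364 CPM in the same order, and Ccl6 at 2584, 1274 and 5634 CPM. Ccl2 was at 1840.3, 774 and 1280 CPM. Within IR 3D Ccl2 was at 569, 599 and 802 CPM in the same order, and within MI 3D at 1295, 1143 and 1240 CPM. Groups take different shares of each cluster, so the order was also read within groups. In MI 3D cluster 12 (42 wells) had the least Ccr2 and the most Ccl24 and Ccl6 of the 3, also without any single plate. In IR 1D and IR 3D it held 6 and 16 wells with 12 Ccl24 UMIs each, and the pooled order was the same. Without IR 3D replicate 3 its Ccl24 went from 122 to 34.0 CPM, against 35.6 CPM in cluster 2 of IR 3D. In Sham 1D Ccl6 was at 5954 CPM in cluster 2 (8 wells) and 2625 CPM in cluster 12 (13 wells). Ccl24 was there at 828 and 366 CPM, but in 25% of the cluster 2 wells and 61.5% of the cluster 12 wells, and without Sham 1D replicate 4 it was at 315 and 488 CPM, so no order is read for it.
In MI 3D, where all 5 plates had at least 5 wells of both clusters, Ccr2 ran from 333 to 514 CPM in cluster 2 and from 8.78 to 120 CPM in cluster 12, with no overlap. Ccl24 ran from 26.6 to 89.5 CPM in cluster 2 and from 87.8 to 542 CPM in cluster 12, and the ranges overlapped narrowly. In Sham 1D Ccr2 had no UMI in the 13 cluster 12 wells, which allows up to 36.6 CPM, and was at 1010 CPM in the 8 cluster 2 wells.

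**Figure D5:**
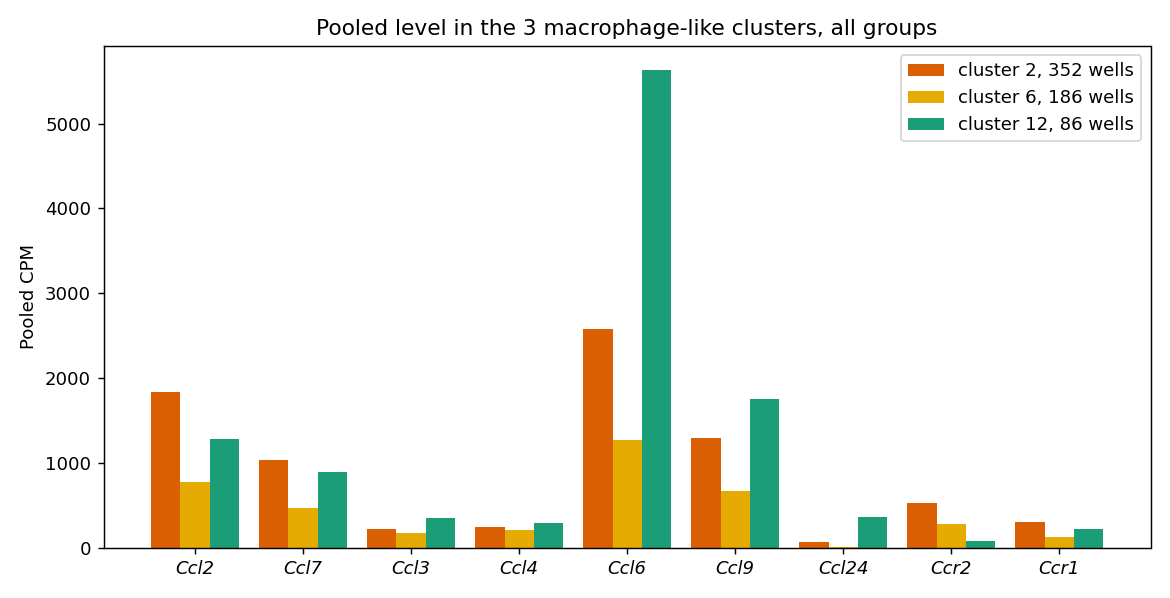
Pooled level (CPM, linear axis from 0) of each gene in the 3 macrophage-like clusters, over all groups. In these pooled values cluster 12 has the most Ccl6 and Ccl24 and the least Ccr2, and cluster 2 the most Ccl2, Ccl7, Ccr2 and Ccr1, in groups that take different shares of the clusters.

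Macrophage-like wells were then split by whether they held a Ccr2 UMI after thinning to 2000 UMIs, on the 11 plates with at least 5 wells on each side (4 of IR 1D, 2 of IR 3D and 5 of MI 3D, with 181 wells that held one and 308 that did not). Ccr1 was higher in wells with Ccr2 on 11 of 11 plates, at a mean of 468 against 255 CPM (log2 1.16 ± 1.34 SD, two-sided permutation test paired by plate, p = 0.00094). This did not pass over all 8299 genes at a mean of at least 10 CPM (adjusted p = 0.269), of which none passed in either direction, and 3.78% were higher and 4.27% lower with Ccr2 at an unadjusted p under 0.05. By the adjustment over the 8 genes alone, which were chosen with results known, Ccr1 was the only 1 called. Ccl24 was lower on 7 plates, higher on 1 and equal on 3 (37.2 against 136 CPM, log2 -1.32 ± 1.36, adjusted p = 0.487) and Ccl7 was lower on 9 (1000 against 1359 CPM, log2 -0.40 ± 0.53, adjusted p = 0.58). Neither passed. Ccl2, Ccl3, Ccl4, Ccl6 and Ccl9 were higher with Ccr2 on between 4 and 8 of the 11 plates, with adjusted p from 0.834 to 0.993.

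Neutrophil-like wells had enough plates in IR 1D and MI 3D for a comparison. These groups differ at once in day, type of ligation and protocol label, which cannot be told apart. Ccl3 ran from 121 through 1168 to 7181 CPM on the 9 IR 1D plates and was at 511, 28.6, 161, 256 and 323 CPM in MI 3D. Ccl4 ran from 161 through 1210.4 to 3660 CPM in IR 1D and was at 474, 57.3, 207, 205 and 484 CPM in MI 3D. Replicate 8 was the highest IR 1D plate for both ligands.
Ccl6 ran from 767 through 1922 to 6438 CPM in IR 1D and was at 730.0, 1002, 738, 819 and 888 CPM in MI 3D. Ccr1 ran from 732 through 925 to 1933 CPM in IR 1D and was at 511, 1059, 461, 435 and 888 CPM in MI 3D. All 4 genes overlapped between the groups.
Of the 5 genes that passed the filter on low counts 3 were lower in MI 3D, where 7.42% of the 512 genes tested were. Ccl4 fell by 2.17 ± 0.56 on the log2 scale (adjusted p = 0.0103), Ccl6 by 1.62 ± 0.45 (adjusted p = 0.0144) and Ccl3 by 2.71 ± 0.80 (adjusted p = 0.0203), while Ccr1 did not pass (-0.63 ± 0.30, adjusted p = 0.152). The Ccl3 call was lost without MI 3D replicate 2 (log2 -2.44), 3 (-2.62) or 4 (-2.68) and the Ccl6 call without MI 3D replicate 1 (-1.59), the Ccl4 call at a minimum of 2000 UMIs (-1.58) or with thinning (-1.42), and none of the 3 passed with at least 10 such wells per plate. The 12 neutrophil markers summed to between 35838 and 61678 CPM in IR 1D and between 17724 and 32378 CPM in MI 3D, with Camp at 0 in both groups and Ltf in MI 3D, and the 11 fibroblast markers to between 356 and 3040 CPM and between 3607 and 7905 CPM, with Tcf21 at 0. The 11 endothelial markers had a median sum of 1529 CPM in IR 1D (222 to 5569 CPM, all present) and 255 CPM in MI 3D (179 to 565 CPM, Kdr at 0), and the 12 cardiomyocyte markers one of 2314 CPM (621 to 7020 CPM, all present) and 773 CPM (292 to 1291 CPM, Actn2 and Ryr2 at 0). Their part in the falls was not tested.

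Fibroblast-like wells held Ccl2 and Ccl7. The class is made of 2 clusters, cluster 5 (206 wells, led by genes that include Tnc, Timp1 and Col1a1, at a median depth of 28670 UMIs) and cluster 13 (82 wells, led by genes that include Pi16 and Scara5). Different clusters held most of it in the groups: all 23 Sham 1D wells were in cluster 13, while 40 of 50 IR 1D, 36 of 56 IR 3D and 129 of 130 MI 3D wells were in cluster 5. Within cluster 13 Ccl2 had 4 UMIs in Sham 1D (29.7 CPM) and 7 in IR 1D (104 CPM, 10 wells), and in cluster 5 it was at 1511 CPM in IR 1D and 654 CPM in IR 3D, pooled over wells and with no test.
By plate, Ccl2 was at 63.3, 29.7 and 0 CPM in Sham 1D, which is 4 UMIs in all, and at 1281, 3236, 2701, 548 and 1324 CPM in IR 1D. It was at 0, 496, 398 and 873 CPM in IR 3D and at 278, 299, 525.6, 531 and 533 CPM in MI 3D. Every IR 1D and MI 3D plate was above every Sham 1D plate. The difference between IR 1D and Sham 1D, added after the classes were seen, was log2 5.86 ± 0.98 (adjusted p = 0.000325), where 11.8% of the 5872 genes rose and Ccl2 was the only 1 of the 4 members tested that did. The 13 macrophage markers summed to at most 145 CPM in these Sham 1D wells and 207 CPM in these IR 1D wells, while the 11 fibroblast markers summed to between 54892 and 68967 CPM and between 6828 and 26589 CPM. The 12 cardiomyocyte markers, all present, summed to between 1948 and 10991 CPM in Sham 1D and between 62.5 and 459 CPM in IR 1D, and the 12 neutrophil markers to at most 95.02 CPM (1 marker present) and between 14.5 and 1156.5 CPM (9 present, Camp, Ltf and Ngp at 0). The part of these markers in the rise was not tested.
Ccl7 was at 380.1, 565 and 72.7 CPM in Sham 1D and at 453, 1635, 1350.4, 235 and 525 CPM in IR 1D. The ranges overlapped and the difference did not pass (log2 1.19 ± 0.69, adjusted p = 0.23). From IR 1D to IR 3D Ccl2 fell by 1.77 ± 0.56 on the log2 scale (adjusted p = 0.0244), where 10.6% of genes fell. This call was lost without IR 1D replicate 5 (log2 -1.51) or 6 (-1.58) or IR 3D replicate 4 (-1.82) or 5 (-1.68), at a minimum of 500 UMIs (-1.47), with thinning (-1.40) and with at least 10 (-1.30) or 3 (-1.64) wells per plate. In IR 3D the fibroblast markers were at 69973 to 97793 CPM, the cardiomyocyte markers at 1384 to 7085 CPM and the 11 endothelial markers, all present, at 273 to 875 CPM (70.5 to 212 CPM in IR 1D), each above its IR 1D range. The neutrophil markers were at 20.4 CPM or less (5 present). Their part was not tested.
Ccl6 and Ccl9 were called higher in IR 3D than in IR 1D (log2 3.85 ± 0.91, adjusted p = 0.00413, and 4.34 ± 0.90, adjusted p = 0.0015), where 11.9% of genes rose. Replicate 4 of IR 3D was at 1341 CPM of Ccl6, against 20.4, 24.9 and 9.00 CPM on the other plates, and at 500 CPM of Ccl9, against 0, 74.6 and 162 CPM. Without it the log2 differences were -1.04 for Ccl6 and 3.02 for Ccl9, and neither passed (adjusted p = 0.601 and 0.0711). Both calls were also lost at a minimum of 500 UMIs (0.29 for Ccl6 and 1.20 for Ccl9) or 2000 UMIs (0.32 and 1.39) and with at least 10 wells per plate. The macrophage markers summed to 4126 CPM on the highest IR 3D plate and 49.7 CPM on the lowest, with a median of 320 CPM and all 13 markers present. The call of Ccl6 as lower in MI 3D than in IR 3D (log2 -2.75 ± 0.68, adjusted p = 0.0125, where 5.38% of genes fell) was also lost without IR 3D replicate 4, at a log2 difference of 2.13, and at a minimum of 500 or 2000 UMIs.

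In endothelial-like wells Ccl2 was at 0, 49.6, 11.9 and 0 CPM in Sham 1D, at 0 on all 4 Sham 14D plates and from 28.4 through 378 to 1286 CPM on 8 IR 1D plates. It was at 83.5, 63.0, 109, 240.0 and 150 CPM in MI 3D. Every MI 3D plate was above every sham plate, and IR 1D overlapped Sham 1D at its lower end. Of the 5 members tested 3 rose in IR 1D against Sham 1D, where 8.13% of the 3370 genes rose. The class is made of 3 clusters, cluster 3 (223 wells, led by genes that include Ly6c1, Kdr and Gpihbp1), cluster 11 (109 wells, Plvap, Vwf and Apln) and cluster 15 (69 wells, Mmrn1, Reln and Flt4), and different clusters held most of it in the groups. Of 105 Sham 1D wells 80 were in cluster 3 and 4 in cluster 11, of 79 IR 1D wells 33 and 41, and of 58 MI 3D wells 6 and 49. Within cluster 3, pooled over wells and with no test, Ccl2 was at 12.4 CPM in Sham 1D, 871 CPM in IR 1D and 271 CPM in MI 3D.
Ccl2 rose by log2 4.89 ± 0.87 (adjusted p = 0.000268), Ccl6 by 4.81 ± 1.11 (adjusted p = 0.00226) and Ccr1 by 4.28 ± 1.41 (adjusted p = 0.0304). Of the 278 Ccl6 UMIs in IR 1D, replicate 1 held 90 (1276 CPM) and replicate 9 held 156 (711 CPM). The median of the 8 plates was 50.1 CPM and 1 plate was at 0, against 19.9 CPM or less in Sham 1D. Ccr1 had 1 UMI in Sham 1D and 50 in IR 1D, a ratio of pooled CPM of 39.3 with an exact counting interval of 6.74 to 1585. This interval takes UMIs as independent, but 5 of 79 IR 1D wells held all 50 and 1 well held 28. Of the 8 IR 1D plates 3 were at 0. The Ccr1 call was lost without Sham 1D replicate 1 (log2 4.13), 2 (4.08) or 3 (3.72) and at a minimum of 2000 UMIs.
In MI 3D against the 2 sham groups Ccl2 rose by log2 4.96 ± 1.13 (adjusted p = 0.00101) and Ccl6 by 2.71 ± 0.92 (adjusted p = 0.0194), where 18.3% of genes rose. The Ccl6 call was lost without MI 3D replicate 4 (log2 2.14), by DESeq2 and with Sham 14D alone as control (2.06), and after thinning to 1000 UMIs no member had enough UMIs to be tested in either comparison. The macrophage markers summed to between 41.6 and 577 CPM in Sham 1D, 33.6 and 3676 CPM in Sham 14D, 95.1 and 979 CPM in IR 1D and 444 and 1358 CPM in MI 3D, with Ms4a7 alone at 0, in IR 1D. The 12 neutrophil markers summed to between 31.2 and 49.6 CPM in Sham 1D (5 present), 0 and 112 CPM in Sham 14D (3 present), 42.5 and 2776 CPM in IR 1D (11 present, Camp at 0) and 21.5 and 504 CPM in MI 3D (8 present). The 12 cardiomyocyte markers, all present, summed to between 13611 and 20679 CPM in Sham 1D, 12607 and 41750 CPM in Sham 14D, 333 and 13224 CPM in IR 1D and 47.7 and 280.2 CPM in MI 3D. The 11 fibroblast markers had a median sum of 919 CPM in Sham 1D (437 to 1115 CPM), 904 CPM in Sham 14D (422 to 977 CPM, Tcf21 at 0), 404 CPM in IR 1D (142 to 1340 CPM) and 1743 CPM in MI 3D (904 to 4176 CPM). The part of these markers in the rises was not tested.

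Cardiomyocyte-like wells held 0.636% of the Ccl2 UMIs. Their highest levels were those of IR 1D, with Ccl2 as given above and Ccl6 at 82.9, 54.3 and 146.1 CPM. The 2 MI 3D plates were at 12.7 and 136 CPM of Ccl2 and at 76.0 and 45.3 CPM of Ccl6, and neither group was tested in this class. Ccl2 was at 0, 51.6, 18.5, 32.96 and 61.2 CPM on the IR 3D plates, at 0, 49.1, 3.85 and 0 CPM in Sham 1D and at 6.33 CPM on 1 of 5 Sham 14D plates, with the others at 0. Ccl6 was at 0, 76.2, 18.5, 98.9 and 40.8 CPM in IR 3D and at 14.4 CPM or less on the sham plates. The ranges overlapped, with IR 3D replicate 3 at 0 for both genes and Sham 1D replicate 2 above 3 of the 5 IR 3D plates for Ccl2.
The class is made of 4 clusters, cluster 0 (409 wells, led by genes that include Myh6 and Hrc), cluster 1 (386 wells, Slc2a4 and Corin), cluster 4 (217 wells, Nppa, Nppb and Ankrd1) and cluster 10 (110 wells, Myh7b and Neat1). Cluster 4 held 143 of 279 IR 3D wells, 27 of 40 IR 1D wells and 19 of 20 MI 3D wells, but 7 of 234 Sham 1D and 2 of 209 Sham 14D wells, where it had no Ccl2 or Ccl6 UMI. Within cluster 1, pooled over wells and with no test, Ccl2 was at 36.2 CPM in IR 3D, 2.51 CPM in Sham 1D and 0 CPM in Sham 14D, and Ccl6 at 63.9, 5.03 and 0 CPM.
Of the 4 members tested 2 rose in IR 3D against the sham groups, where 4.29% of the 4222 genes did. Ccl2 rose by log2 3.03 ± 0.71 (adjusted p = 0.0018), a call lost by DESeq2 and with Sham 1D alone as control (1.70), and Ccl6 by 3.55 ± 0.61 (adjusted p = 9.53e-06). The 13 macrophage markers, which cardiomyocytes are not known to express, moved with them, with a median sum of 1323 CPM in IR 3D (296 to 1648 CPM, all 13 present) against 107 CPM in Sham 1D (46.2 to 154 CPM, Lyz2 at 0) and 48.6 CPM in Sham 14D (0 to 120 CPM, Cd14, Fcgr1 and Ms4a7 at 0). So did the 11 fibroblast markers, with a median sum of 2466 CPM in IR 3D (739 to 3001 CPM, all present) against 520 CPM in Sham 1D (283 to 1042 CPM) and 386 CPM in Sham 14D (285 to 794 CPM), with Tcf21 at 0 in both sham groups. Their part in the rise was not tested.

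Other genes of the pathway were taken from fixed lists. Over all wells of IR 1D against Sham 1D, 15 of 19 receptor signalling genes rose and none fell, where 19.7% of all genes rose and 16.9% fell. Their median log2 difference was 1.55, against 0.097 over all genes tested. They included Itgb2, a leukocyte integrin chain (2.36 ± 0.59, adjusted p = 0.00179), and Rac1, a regulator of the actin cytoskeleton (0.82 ± 0.33, adjusted p = 0.0472). Of 18 NF-kB genes and inflammatory inducers 12 rose and 1 fell, with the cytokine Il1b at 4.09 ± 0.70 (adjusted p = 1.73e-05). Among the other CC ligands 1 of 3 tested rose, the Ccr2 ligand Ccl12 (2.65 ± 0.72, adjusted p = 0.00387), and among the other receptors 1 of 4, the atypical receptor Ccrl2 (1.24 ± 0.43, adjusted p = 0.0223), which is near the share over all genes. Of 8 monocyte genes 5 rose, and of 7 resident macrophage genes Gas6 fell by 1.71 ± 0.45 (adjusted p = 0.00269), which is near the share of all genes that fell. Within macrophage-like wells the same comparison called none of 18 receptor signalling genes, where 2.51% of all genes were called. Of 17 NF-kB genes and inflammatory inducers 2 fell there, of 7 monocyte genes 1 rose and of 8 resident macrophage genes 3 fell. Macrophage-like wells made up 5.09% of Sham 1D and 22.6% of IR 1D wells, and neutrophil-like wells 0.231% and 21.3%. The part of these shares in the rises was not tested.
Within macrophage-like wells from IR 1D to IR 3D, 8 of 17 NF-kB genes and inflammatory inducers fell and none rose, where 12.1% of all genes fell and 13.8% rose, with Il1b at log2 -3.71 ± 0.46 (adjusted p = 1.11e-06) and Cebpb, a myeloid transcription factor, at -2.51 ± 0.32 (adjusted p = 1.47e-06). Of 7 monocyte genes 4 fell, among them Vcan (-4.41 ± 0.58, adjusted p = 2.02e-06) and S100a4 (-1.29 ± 0.22, adjusted p = 7.15e-05). Of 8 resident macrophage genes 4 rose, among them Gas6 (2.84 ± 0.48, adjusted p = 5.8e-05) and Folr2 (2.19 ± 0.40, adjusted p = 0.000156). Of 3 other CC ligands 1 rose, Ccl8 (4.16 ± 0.56, adjusted p = 2.57e-06), and 1 fell, Ccl17, which the naming rule leaves out and which was named after its value was seen, while Ccl12 did not pass (-1.54 ± 0.63, adjusted p = 0.0702). Of 18 receptor signalling genes 3 fell, near the share over all genes.

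Likeness of pattern was measured over 22 pools of class and group, each of at least 20 wells, as Pearson r of log2(CPM + 10) against 12922 genes. The gene most like Ccl3 was Ccl4 (0.982) and that most like Ccr2 was Ccl12 (0.981). Ccl3 and Ccl4 overlap on opposite strands, and the part of reads of the overlap in their likeness was not tested. Ccl2 was most like Thbs1 (0.958), Ccl7 like Ccdc109b (0.932), Ccl6 like Adam8 (0.962), Ccl24 like Stap1 (0.968) and Ccr1 like Clec4n (0.978). Of other members, Ccl7 came next for Ccl2 (0.909), and the value for Ccl6 and Ccl9 was 0.944. The pools share plates and differ in depth, so these values are a description.

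For the neighbours Ccl6 and Ccl9, whose levels were alike over the pools, the 250 bases before the RefSeq start are shown (GRCm38.p6, minus strand, 5′ to 3′), with the runs of at least 10 bases that both windows hold in capitals. The Ccl6 window is chr11:83593088-83593337 and the Ccl9 window chr11:83578637-83578886.
Ccl6: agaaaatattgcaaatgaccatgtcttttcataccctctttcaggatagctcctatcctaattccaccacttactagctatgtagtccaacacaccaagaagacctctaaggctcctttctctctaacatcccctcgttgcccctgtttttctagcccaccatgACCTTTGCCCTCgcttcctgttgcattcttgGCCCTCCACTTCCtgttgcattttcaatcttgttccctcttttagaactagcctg
Ccl9: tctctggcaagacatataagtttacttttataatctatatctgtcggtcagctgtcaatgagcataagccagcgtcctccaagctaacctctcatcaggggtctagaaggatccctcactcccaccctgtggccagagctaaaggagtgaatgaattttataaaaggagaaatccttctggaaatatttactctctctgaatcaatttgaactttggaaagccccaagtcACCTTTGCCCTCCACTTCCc
The capitals cover 25 bases of the Ccl6 and 19 bases of the Ccl9 window. Promoter entries were found for 5 of the 9 members, namely Ccl3, Ccl6, Ccl9, Ccr2 and Ccr1. On either strand, the AP-1 motif TGANTCA was in the Ccl9 window alone of the 5, and in 6.75% of 32851 windows of this length. The NF-kappaB consensus was also in the Ccl9 window alone, and in 3.90% of windows, and the PU.1 motif GAGGAAGT was in none of the 5 and in 2.44%. A match describes letters and is no evidence of binding.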

How the data were processed

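UMI counts of single left ventricular cells of mouse were used from 36 plates, each plate a sample. The deposited counts were made by the authors from paired-end reads mapped with BWA to GRCm38/mm10, where transcripts with distinct UMIs were counted per gene and well. Tool versions, the gene annotation, read filters and the strand setting are not given in the sources used here. All 174110208 values read were whole, and the highest was 4096. Samples were grouped by their labels.

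From these counts, mitochondrial and spike-in rows, wells under 1000 UMIs and 43 wells copied between plates (20 of them with at least 1000 UMIs) were left out. The Sham 14D plates labelled 2 and 7, whose well depths had a Spearman rho of 0.910, were averaged as replicate 7, and numbers of wells count the plate once. No doublet caller was run. Wells were clustered in scanpy 1.11.5 (Python 3.11.15, Leiden by leidenalg 0.10.2, scaling to 10000 UMIs, 2000 variable genes, 30 components, 15 neighbours), with the 59 chemokine and chemokine receptor genes left out, and the 19 clusters were named where at least 3 fixed markers averaged 0.5 or more per 10000 UMIs and were at least 2-fold above the other wells, with at least 2 times as many markers as for any other type. A shallow cluster with no marker of the type among its 10 leading genes stayed unnamed (182 wells with 5 fibroblast markers, 23.6% of MI 3D and at most 2.03% of another group). So did, by a rule set after the data were seen, a cluster whose leading genes went against that name (46 wells with 9 fibroblast markers, at most 3.45% of a group). Counts were summed per plate, or per plate and class with at least 5 wells, and tested with edgeR 4.0.16 in R 4.3.3 (TMM, quasi-likelihood, 1 fit over all groups, filterByExpr, threshold 0.05). The test was checked on simulated counts. DESeq2 1.42.0, RLE scaling, no filter, other minimums of UMIs and wells, thinning, a replicate block, other controls and leaving out each plate were tried. Classes, and wells with and without Ccr2, were compared by permutation on log2(CPM + 10). Depth ran from 17155 UMIs on the smallest plate upwards and limits low genes, and intervals and floors (3 UMIs) cover counting error only.

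The members, the lists and the tests were chosen with earlier results of these data known. All 9 members are named, and of each pathway list up to 4 genes with the highest CPM. Single genes were followed through the alternatives only where their unadjusted p was under 0.05. Replicate numbers were checked as pairs and did not pair the plates. A few items are not reported here.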

Additional observations from a re-analysis of the deposited data

Results flagged for a closer look

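In 35 of 126 groups of 4 to 10 plates 1 plate stood far from the others by Dixon's criterion, which chance meets in about 1 group in 20, and only members that passed the filter on low counts in that class were examined. All values are CPM. Over all wells, Sham 14D replicate 6, the plate of 10 wells, stood apart for Ccl2 (525), Ccl7 (816), Ccl4 (117) and Ccr1 (175), and Sham 14D replicate 8 for Ccl3 (25.4). IR 3D replicate 1, the plate of 11 wells, stood apart for Ccl7 (1065), Ccl4 (272) and Ccl6 (2175). IR 3D replicate 3 (105) and MI 3D replicate 2 (77.3) did so for Ccl24, Sham 1D replicate 2 for Ccr2 (163) and IR 1D replicate 8 for Ccr1 (434).

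In macrophage-like wells IR 1D replicate 6 stood apart for Ccl3 (4552) and Ccl4 (3264) and replicate 1 for Ccr2 (1489). IR 3D replicate 3 did so for Ccl9 (2717), and Ccl24 had 3 such plates, IR 1D replicate 9 (599), IR 3D replicate 3 (340) and MI 3D replicate 2 (151). In neutrophil-like wells IR 1D replicate 8 stood apart for Ccl3 (7181) and Ccl4 (3660). In fibroblast-like wells IR 3D replicate 4 stood apart for Ccl6 (1341) and MI 3D replicate 2 for Ccl6 (128) and Ccl9 (374).

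In endothelial-like wells Sham 14D replicate 8 stood apart for Ccl6 and Ccr2 (134 each) and Ccr1 (44.8), Sham 1D replicate 4 for Ccr2 and Ccr1 (8.78 each, which is 1 UMI), IR 1D replicate 1 for Ccl9 (411) and MI 3D replicate 4 for Ccr1 (52.2). In cardiomyocyte-like wells Sham 14D replicate 8 stood apart for Ccl2 and Ccl6 (6.33 each), Sham 14D replicate 1 for Ccl7 (4.01) and Sham 1D replicate 2 for Ccl2 (49.1). These Sham 14D values are 1 UMI each, with the other Sham 14D plates at 0.

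The effect of reperfusion on Ccr1 differed between day 1 and day 14 by log2 3.76, tested as an interaction in the edgeR fit over all wells.

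Wells under 1000 UMIs, which entered no comparison but the alternative with at least 500 UMIs per well, also held these transcripts above their level in such wells of the sham groups. Ccl2 was at 1933 CPM in IR 1D, against 84.4 in Sham 1D and 5.41 in Sham 14D. Ccr1 was at 186 CPM in IR 1D, against 8.73 and 2.71, Ccl3 at 138 CPM, against 8.73 and 5.41, and Ccl4 at 205 CPM, against 34.9 and 2.71. Ccl7 was at 427 CPM in MI 3D, against 20.4 and 5.41, Ccl6 at 1083 CPM, against 64.0 and 24.4, and Ccl9 at 496 CPM, against 37.8 and 10.8. Ccr2 was at 124 CPM in IR 3D, against 17.5 and 2.71.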

How the results depend on the processing

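Counts are of the 9 genes called by edgeR, and the cause of a change was not tested unless given. Among the values under other settings, 1825 kept their direction and side of the threshold, 139 lost and 87 gained a call or a count, and 2 changed sign: in fibroblast-like wells without IR 3D replicate 4, Ccl6 was at log2 -1.04 in IR 3D against IR 1D (up to 4.58 without other plates) and at 2.13 in MI 3D against IR 3D (down to -3.14). The 34 differences between classes did not change in number under CPM, a pseudocount of 100 or thinning, or between adjustment over the 36 pairs and over all genes, an alternative added after the data were seen. The genes called with and without Ccr2, adjusted over the 8 genes, went from 1 to 2 with thinning to 1000 UMIs and to 0 with adjustment over all genes.

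Over all wells, IR 3D against sham went from 7 to 1 and MI 3D against sham from 8 to 2 with Sham 1D alone as control. MI 3D against IR 3D went from 0 to 1 without the filter, with at least 500 or 2000 UMIs, with thinning or with the block. IR 3D against IR 1D went from 3 to 6 with thinning, and the difference of the day effects from 1 to 0 at 2000 UMIs and to 4 with thinning. In macrophage-like wells MI 3D against IR 3D went from 1 to 3 without the filter or at 10 wells per plate and to 0 with thinning. MI 3D against IR 1D went from 1 to 2 with RLE scaling, without the filter or at 3 wells, to 3 with copied wells kept, and to 4 with DESeq2, at 500 or 2000 UMIs or at 10 wells, and IR 1D against Sham 1D from 0 to 1 without the filter. In endothelial-like wells IR 1D against Sham 1D went from 3 to 7 without the filter and 5 at 10 wells, and MI 3D against sham from 2 to 7 without the filter and 1 with DESeq2 or Sham 14D alone; with thinning both went to 0 because no member could be tested. In fibroblast-like wells IR 3D against IR 1D went from 3 to 0 at 500 UMIs, with thinning or at 10 wells and to 1 at 2000 UMIs, MI 3D against IR 3D from 1 to 0 with DESeq2, at 500 or 2000 UMIs or with thinning and to 2 at 10 wells, and IR 1D against Sham 1D from 1 to 2 without the filter. The neutrophil-like count went from 3 to 1 at 2000 UMIs or with thinning and 0 at 10 wells, and the cardiomyocyte-like count from 2 to 1 with DESeq2, thinning, Sham 1D alone or 3 wells.

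Without single plates the counts over all wells ran from 2 to 8 (IR 1D against Sham 1D, with 2 without Sham 1D replicate 3 and 3 without Sham 1D replicate 1), 6 to 8 (IR 3D against sham), 0 to 0 (IR 14D), 8 to 8 (MI 3D against sham), 0 to 1 (MI 3D against IR 3D), 2 to 4 (IR 3D against IR 1D) and 0 to 5 (day effects). In macrophage-like wells they ran from 5 to 8 (IR 3D against IR 1D), 0 to 2 (MI 3D against IR 3D), 1 to 4 (MI 3D against IR 1D) and 0 to 1 (IR 1D against Sham 1D), in endothelial-like wells from 2 to 3 (IR 1D) and 1 to 4 (MI 3D), in fibroblast-like wells from 1 to 3 (IR 3D against IR 1D), 0 to 1 (MI 3D against IR 3D) and 1 to 1 (IR 1D against Sham 1D), in neutrophil-like wells from 2 to 3 and in cardiomyocyte-like wells from 2 to 3. The count with and without Ccr2 ran from 1 to 3.

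With the replicate block, IR 3D against IR 1D went from 3 to 1 and the day effects from 1 to 0 over all wells, macrophage-like MI 3D against IR 3D from 1 to 0, fibroblast-like IR 3D against IR 1D from 3 to 0 and MI 3D against IR 3D from 1 to 0, neutrophil-like from 3 to 1 and cardiomyocyte-like from 2 to 0. With the block 4 genes were called over all wells in IR 1D against Sham 1D, 8 in IR 3D and 8 in MI 3D against sham, 1 in MI 3D against IR 3D and 6 in macrophage-like IR 3D against IR 1D. The numbers do not pair the plates: plates of the same number had a median correlation of -0.006 (59 pairs, 10 above 0.1), those of other numbers -0.005 (411 pairs, 45 above 0.1).

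Counts over all genes moved by over 1.5 times with thinning, which tests fewer genes (IR 1D against Sham 1D from 3403 of 9279 to 1096 of 2467), with the block (day effects from 1684 to 988, and in macrophage-like wells from 1335 to 795, 421 to 186, 332 to 100 and 129 to 58), with DESeq2 (macrophage-like IR 1D against Sham 1D from 129 to 255, fibroblast-like MI 3D against IR 3D from 510 to 822) and at 10 wells per plate (fibroblast-like IR 3D against IR 1D from 1323 to 197, neutrophil-like from 89 to 17).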
